A study of Pimephales promelas with 139 samples.

Results

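Whole fathead minnow (Pimephales promelas) larvae that received no ethinyl estradiol gave 29 libraries of this mRNA sequencing series, which holds a further 110 libraries from exposed larvae. They are the libraries whose label gives a concentration of 0 ng/L, and they fall into 10 larvae of experiment 3, 9 larvae of experiment 2 and 10 larvae of experiment 1. All were taken at 96 h after hatching. Like the exposed larvae, they had spent 48 h in static vessels that were set up 48 h after hatching, and each library came from 1 whole larva and 250 ng of RNA. The exposed larvae were kept at 0.12 and 1.2 ng/L ethinyl estradiol or at 2.5, 5 and 10 ng/L, and each experiment holds every concentration. The labels name no strain, sex or parents and give neither the larvae that shared a vessel nor what apart from its number set 1 experiment apart from another. The p-values therefore measure only the spread between these libraries, and water, parents, day, handling and sequencing run cannot be told apart as parts of an experiment.

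The fathead minnow is a small freshwater fish that is widely used to test the toxicity of water. In the days after hatching its larvae use up their yolk, start to feed, and grow muscle, gut, liver, brain and skin, so RNA of a whole larva mixes many tissues. Unexposed larvae set the level from which a response to a chemical is read, and repeated experiments show how far that level moves by itself. In whole-larva RNA, fewer cells of a type and less RNA per cell cannot be told apart. The deposited table lists transcripts by identifier and pairs none with a gene name, so roles are not given and tissue markers could not be looked up.

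The control libraries held 11651986 to 30553315 counts, with a median of 23604136, and 36286 to 36777 of the 37085 listed transcripts had at least 1 read in a library. Library totals averaged 24.4 ± 2.76 M counts in experiment 3, 21.2 ± 2.68 M in experiment 2 and 24.2 ± 5.41 M in experiment 1 (SD, n = 10, 9 and 10). The 100 most abundant transcripts of each library took 23.4 ± 1.52% of the reads in experiment 3, 25.2 ± 1.55% in experiment 2 and 25.3 ± 2.31% in experiment 1. For this share the two-sided exact permutation test gave p = 0.0415 between experiments 3 and 1 and p = 0.0170 between experiments 3 and 2. Over the 21 tests of 7 library measures in 3 pairs of experiments the smallest Benjamini-Hochberg adjusted p was 0.249, so no library measure passed the threshold of 0.05.

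The transcriptome of an unexposed larva was broad, and none of its 3 most abundant transcripts was called between experiments in the control larvae. Of the listed transcripts 33230, or 89.6%, had a read in every control larva. Levels are given in CPM, the reads of a transcript scaled to the same total in each library and not divided by transcript length, so an order of transcripts by CPM is not an order of molecule numbers. The classes in this paragraph use library totals without TMM adjustment, and CPM elsewhere use TMM-adjusted totals. A mean of 1 CPM or more was reached by 28400 transcripts and 10 CPM or more by 13995, which took a median of 93.7% of a larva's reads. The 78 transcripts at 1000 CPM or more took 18.3 to 26.1% of the reads of a larva, with a median of 22.4%.

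The most abundant transcript was FMt013628, with a lowest, median and highest larva of 14537, 17543 and 23375 CPM in experiment 3, 15043, 21295 and 24572 CPM in experiment 2, and 14566, 17669 and 25052 CPM in experiment 1. The ranges of the 3 experiments overlapped almost completely. FMt019743 averaged 15810 ± 3593 CPM in experiment 3, 19542 ± 3309 CPM in experiment 2 and 19034 ± 4772 CPM in experiment 1 (SD, n = 10, 9 and 10). FMt030989, the third in rank, averaged 8674 ± 1770, 9964 ± 1478 and 9281 ± 1698 CPM in experiments 3, 2 and 1. In control larvae the log2 difference of FMt013628 for experiment 3 minus 2 was -0.20 ± 0.12 (SE) and was not called. In exposed larvae it was -0.23 ± 0.06 (SE; edgeR adjusted p = 0.0364) and was called. None of the 3 most abundant transcripts passed the test between any 2 experiments in control larvae. FMt019743 showed the widest of their differences, a log2 difference of -0.31 ± 0.15 (SE) for experiment 3 minus 2, with an adjusted p of 1.00 by edgeR's quasi-likelihood test.

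Larvae of 1 experiment differed from each other about as much as larvae of different experiments. Over 126 pairs of larvae from the same experiment the correlation of log2 CPM across transcripts averaged 0.953 (lowest 0.922, highest 0.976). Over 280 pairs from different experiments it averaged 0.952 (lowest 0.926, highest 0.969). These correlations describe transcripts of the same pair of libraries and carry no test. The root mean square log2 distance between larvae was 0.727 within experiment 3, 0.717 within experiment 2 and 0.771 within experiment 1. Between experiments it was 0.759 for 3 and 1, 0.751 for 2 and 1 and 0.727 for 3 and 2.

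Averaged over transcripts, the same held. The experiment accounted for a mean of 7.97% of a transcript's variance in log2 CPM over the 33388 transcripts tested, beside the 7.14% that the 2 degrees of freedom between experiments make up out of the total. The median was 5.61%. It was 9.05% for the 80 transcripts of 1000 CPM or more on the TMM-adjusted scale and 9.04% for the 23 transcripts under 0.3 CPM. In the classes between 0.3 and 1000 CPM it was 4.74 to 5.81%. Transcripts under 0.3 CPM pass the filter on counts only if some larvae lie well above that mean. The 23 are therefore unevenly expressed and do not stand for all transcripts of low level. Between-experiment shares above 25% were found for 1354 transcripts, 4.06% of those tested, and shares above 50% for 32. The numbers that chance alone would give above 25% and 50% were not computed, so the average does not speak for these transcripts. The means of the 3 experiments spanned a median of 0.191 on the log2 scale, against a median SD between larvae of the same experiment of 0.370.

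On the first principal component of log2 CPM, which carried 12.02% of the variance, the scores averaged 0.764 ± 33.2 in experiment 3, 4.11 ± 28.9 in experiment 2 and -4.47 ± 40.3 in experiment 1 (SD, n = 10, 9 and 10). The experiment took 1.13% of the variance of that component and 6.69% of that of the second, which carried 7.98%. It took 12.7% on the third component and 31.6% on the fifth, which carried 5.62%. The axis of largest spread therefore ran within the experiments. The lowest scores on it belonged to larva A02 of experiment 1 at -85.8, larva A57 of experiment 3 at -80.8, larva A13 of experiment 1 at -64.9 and larva A28 of experiment 2 at -53.2, so each experiment held at least 1 such larva.

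**Figure D1:**
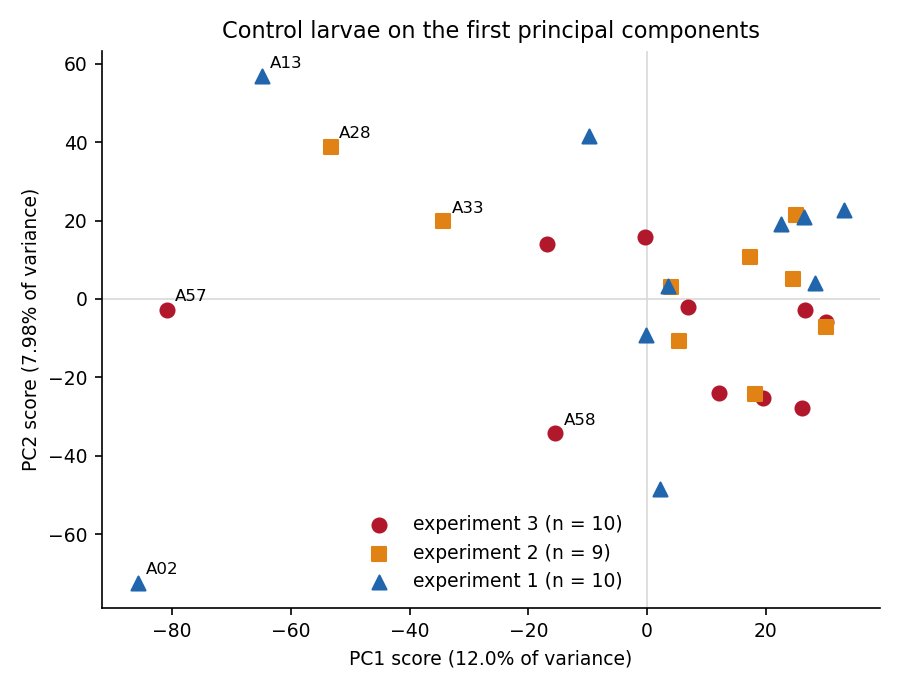
Scores of the 29 control larvae on the first principal component (horizontal, 12.02% of the variance) and the second (vertical, 7.98%), computed from log2 CPM. Each point is 1 larva, with shape and colour for the experiment, and the 6 larvae that deviate most from their own experiment are labelled. The 3 experiments overlap, and the larvae far to the left come from all 3.

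How far a larva lay from the others of its experiment was measured by its median absolute log2 deviation over transcripts. It averaged 0.251 ± 0.0572 in experiment 3, 0.239 ± 0.0562 in experiment 2 and 0.260 ± 0.0611 in experiment 1 (SD), and the smallest adjusted p of its 3 exact permutation tests was 0.932. The 6 highest values were 0.386 in A02, 0.358 in A57, 0.349 in A13, 0.344 in A58, 0.341 in A33 and 0.332 in A28. Those are 2 larvae of each experiment, and the next value was 0.281.

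The measured spread between larvae depended on the level of a transcript far more than on the experiment. It includes the error of counting reads, which is larger at low levels and was not separated from differences between larvae. Transcripts of 0.3 to 1 CPM had a median SD of log2 CPM of 0.623 in experiment 3, 0.632 in experiment 2 and 0.666 in experiment 1. At 30 to 100 CPM it was 0.224, 0.201 and 0.225 in experiments 3, 2 and 1. Above that level it was larger again, at 0.280, 0.260 and 0.302 in experiments 3, 2 and 1 for the same 80 transcripts of 1000 CPM or more. Over all transcripts tested, the median SD was 0.352 in experiment 3, 0.338 in experiment 2 and 0.367 in experiment 1. The largest SD of the 3 was that of experiment 3 for 32.8% of transcripts, experiment 2 for 27.1% and experiment 1 for 40.1%.

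**Figure D2:**
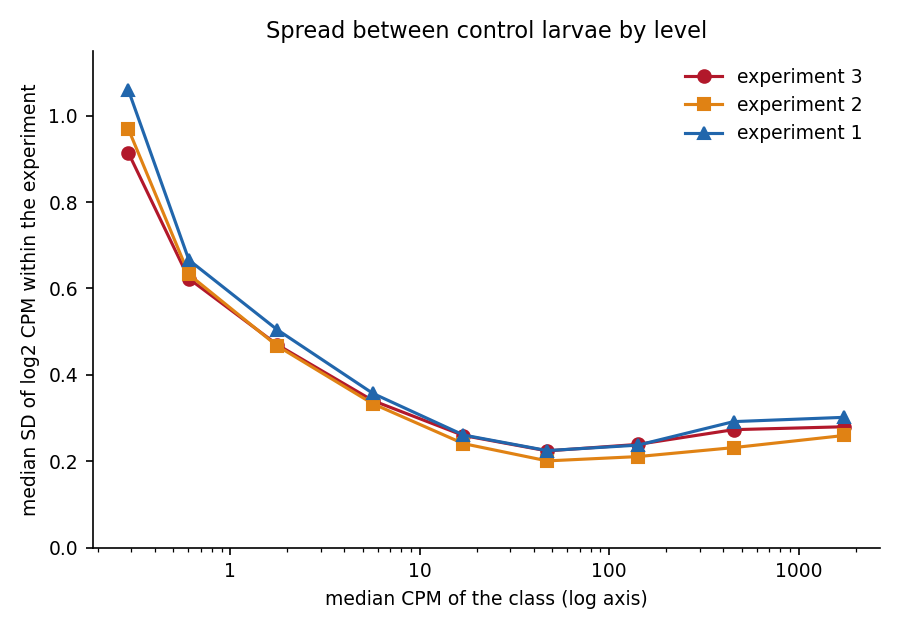
Median SD of log2 CPM between control larvae (vertical) in 9 classes of mean level (horizontal, median CPM of the class on a log axis), with 1 line for each experiment. All 3 lines fall to their lowest point in the class of 30 to 100 CPM, at 0.224, 0.201 and 0.225 in experiments 3, 2 and 1, and rise slightly in the most abundant classes. The SD includes the error of counting reads, which is larger at low levels.

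Few transcripts passed the test between experiments. With all 3 experiments in a joint edgeR quasi-likelihood test, 21 of 33388 transcripts were called at an adjusted p under 0.05, which is 0.0629%. Experiment 3 against experiment 1 gave 30 calls (0.0899%), experiment 2 against experiment 1 gave 4 (0.012%), and experiment 3 against experiment 2 gave 0 (0%). The first and second of these pairs share the larvae of experiment 1. The 4 calls between experiments 2 and 1 became 0 with only those experiments fitted, and ranged from 0 without A27, A32 or A48 to 14 without A33 when 1 larva was left out. Unadjusted p-values under 0.05 were found for 2939 transcripts (8.80%) in experiment 3 minus 1, 2429 (7.28%) in experiment 2 minus 1 and 1529 (4.58%) in experiment 3 minus 2. For experiment 3 minus 2 the smallest adjusted p was 0.863, and DESeq2 called 5 transcripts and limma-voom 0. DESeq2 called more in the other pairs too, 113 for experiment 3 minus 1 and 64 for experiment 2 minus 1, among them all 30 and all 4 of the edgeR calls.

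Of the 30 transcripts called between experiments 3 and 1, 23 were higher in experiment 3 (0.0689% of those tested) and 7 were lower (0.021%). Most of the differences stayed under 2-fold. The median absolute log2 difference was 0.63, 13 of the 30 lay under 1.5-fold, and 8 reached 2-fold. The 23 higher transcripts had log2 differences of 0.32 to 4.10 with a median of 0.56, and 18 of them had a mean above 10 CPM. The value of 4.10 belonged to a transcript with a mean of 0.540 CPM over the controls and a median of 0 CPM in experiment 1. In exposed larvae its log2 difference was 0.92 ± 0.47 (SE) and was not called. The 7 lower ones had log2 differences of -3.48 to -0.45 with a median of -1.06, and 2 of them had a mean under 1 CPM. The transcript at -3.48 had a mean of 0.0827 CPM in experiment 3. Both extremes rest on few reads and passed the filter on counts only through experiments where they were high. In 22 of the 23 and 6 of the 7 the mean of experiment 2 lay between those of experiments 3 and 1, which the choice of transcripts by the outer pair makes likely. For 5 of the 30 no larva of experiment 3 overlapped with any larva of experiment 1. The same comparison chose these transcripts, which favours such separation. How many of all transcripts tested were separated in this way was not counted. The called transcripts described below were also chosen by these comparisons, which favours separation between their larvae too. Over the fits that left out 1 larva the number of calls ran from 17 to 42, with 17 calls without larva A58, 18 without A23 and 19 without A52.

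FMt002788 had the smallest p of all transcripts in the comparison of experiments 3 and 1. Its lowest, median and highest larva had 105, 132 and 174 CPM in experiment 3, 91.7, 110 and 150 CPM in experiment 2, and 55.9, 71.6 and 114 CPM in experiment 1. In 9 of the 10 larvae of experiment 3 it exceeded every larva of experiment 1, while experiments 3 and 2 overlapped widely. The log2 difference was 0.86 ± 0.12 (SE; adjusted p = 0.00103 by edgeR's quasi-likelihood test) for experiment 3 minus 1. For experiment 2 minus 1 it was 0.62 ± 0.12 (SE; edgeR adjusted p = 0.0729) and was not called. The call between experiments 3 and 1 was kept in all 29 fits that left out 1 larva and all 13 alternatives, and the log2 difference ran from 0.81 to 0.96 over them.

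FMt033714 was higher in experiments 3 and 2 than in experiment 1. Its lowest, median and highest larva had 63.7, 69.9 and 81.8 CPM in experiment 3, 56.99, 67.9 and 86.9 CPM in experiment 2, and 44.0, 51.1 and 61.2 CPM in experiment 1. All 10 larvae of experiment 3 and 8 of the 9 larvae of experiment 2 exceeded every larva of experiment 1. The log2 difference was 0.46 ± 0.07 (SE; edgeR adjusted p = 0.00462) for experiment 3 minus 1 and 0.43 ± 0.07 (edgeR adjusted p = 0.0238) for experiment 2 minus 1. It was the only transcript called higher in experiment 2 than in experiment 1 (0.003% of those tested). That call was lost when A17, A18, A22, A27, A32 or A48 was left out, at log2 differences of 0.39 to 0.47 over all such fits, and the call for experiment 3 minus 1 was kept in all 29. Of 13 alternatives, 2 lost the call for experiment 2 minus 1.

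FMt003945, a transcript of low abundance, stood apart in experiment 1 in the other direction. It had 0.0516, 0.270 and 0.509 CPM in the lowest, median and highest larva of experiment 3, 0.0498, 0.114 and 0.742 CPM in experiment 2, and 0.573, 1.32 and 1.53 CPM in experiment 1. No larva of experiment 3 overlapped with experiment 1, and 8 of the 9 larvae of experiment 2 lay below all of its larvae. These levels rest on few reads, 1 to 13 per larva in experiment 3, 1 to 18 in experiment 2 and 10 to 41 in experiment 1. The transcript passed the filter on counts through the larvae of experiment 1, where it was high, which favours this separation. The log2 difference was -2.03 ± 0.35 (SE; edgeR adjusted p = 0.0108) for experiment 3 minus 1 and -2.41 ± 0.38 (edgeR adjusted p = 0.0190) for experiment 2 minus 1. The call for experiment 2 minus 1 was lost without A27, A32 or A48 and in 2 of 12 alternatives. The call for experiment 3 minus 1 was lost in 1 of 12 alternatives.

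The other transcripts called lower in experiment 2 than in experiment 1 were FMt007224 and FMt041952, which with FMt003945 make 3 (0.00899% of those tested). FMt007224 had a lowest, median and highest larva of 18.4, 27.8 and 34.7 CPM in experiment 3, 14.9, 20.2 and 39.9 CPM in experiment 2, and 23.8, 41.1 and 54.6 CPM in experiment 1. All larvae of experiment 2 except A28, at 39.9 CPM, lay below every larva of experiment 1. Its log2 difference was -0.95 ± 0.16 (SE; edgeR adjusted p = 0.0238) for experiment 2 minus 1 and -0.59 ± 0.16 (edgeR adjusted p = 0.184) for experiment 3 minus 1. The call was lost in 9 of the 29 fits that left out 1 larva (A07, A17, A18, A22, A27, A32, A38, A42 or A48) and in 2 of 13 alternatives. FMt041952 averaged 7.12 ± 1.54 CPM in experiment 3, 5.64 ± 0.933 CPM in experiment 2 and 11.1 ± 4.24 CPM in experiment 1, and 8 of the 10 larvae of experiment 1 exceeded every larva of experiment 2. Its log2 difference of -0.98 ± 0.18 (SE; edgeR adjusted p = 0.0445) lost its call in 19 of the 29 fits and 7 of 13 alternatives, which leaves it near the threshold.

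Among transcripts of at least 1 CPM called between experiments 3 and 1, the largest differences were those of FMt011529 and FMt019216, lower in experiment 3, and of FMt047180 and FMt034223, higher there. FMt011529 had a lowest, median and highest larva of 1.56, 3.71 and 5.23 CPM in experiment 3, 3.88, 6.20 and 54.6 CPM in experiment 2, and 2.13, 40.6 and 79.9 CPM in experiment 1. In 7 of the 10 larvae of experiment 1 it exceeded every larva of experiment 3, while the other 3 lay within their range. Its log2 difference was -3.16 ± 0.63 (SE; edgeR adjusted p = 0.0402). The call was lost in 15 of the 29 fits that left out 1 larva and in 5 of 13 alternatives.

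The levels of FMt011529 fell into a low and a high range, with an empty stretch between 7.63 and 21.1 CPM over all larvae, control and exposed (on a scale common to all libraries). No control larva of experiment 3, 4 of the 9 of experiment 2 and 6 of the 10 of experiment 1 lay above that stretch. Among exposed larvae, 1 of 37 in experiment 3, 13 of 37 in experiment 2 and 20 of 36 in experiment 1 did. The stretch was chosen after the values were seen, and the counts describe these larvae without a test.

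FMt019216 had a lowest, median and highest larva of 4.07, 5.50 and 7.25 CPM in experiment 3, 5.92, 8.06 and 11.1 CPM in experiment 2, and 6.33, 9.82 and 23.1 CPM in experiment 1. In 9 of the 10 larvae of experiment 1 it exceeded every larva of experiment 3. The log2 difference of -1.06 ± 0.19 (SE; edgeR adjusted p = 0.0118) kept its call in all 29 fits that left out 1 larva, and lost it with only experiments 3 and 1 fitted (edgeR adjusted p = 0.0537) and under a threshold of 0.01. FMt047180 averaged 1.80 ± 1.18 CPM in experiment 3, 0.641 ± 0.344 CPM in experiment 2 and 0.566 ± 0.291 CPM in experiment 1 (SD, n = 10, 9 and 10). Only 5 of the 10 larvae of experiment 3 exceeded every larva of experiment 1, and the log2 difference of 1.66 ± 0.34 (SE; edgeR adjusted p = 0.0402) lost its call in 18 of the 29 fits. The call was also lost in 5 of 12 alternatives. FMt034223 averaged 1.53 ± 0.430 CPM in experiment 3, 1.49 ± 0.467 CPM in experiment 2 and 0.723 ± 0.3003 CPM in experiment 1. In 8 of the 10 larvae of experiment 3 it exceeded every larva of experiment 1, and its log2 difference of 1.06 ± 0.22 (SE; edgeR adjusted p = 0.0468) lost its call in 22 of the 29 fits. The call was also lost in 6 of 13 alternatives.

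**Figure D3:**
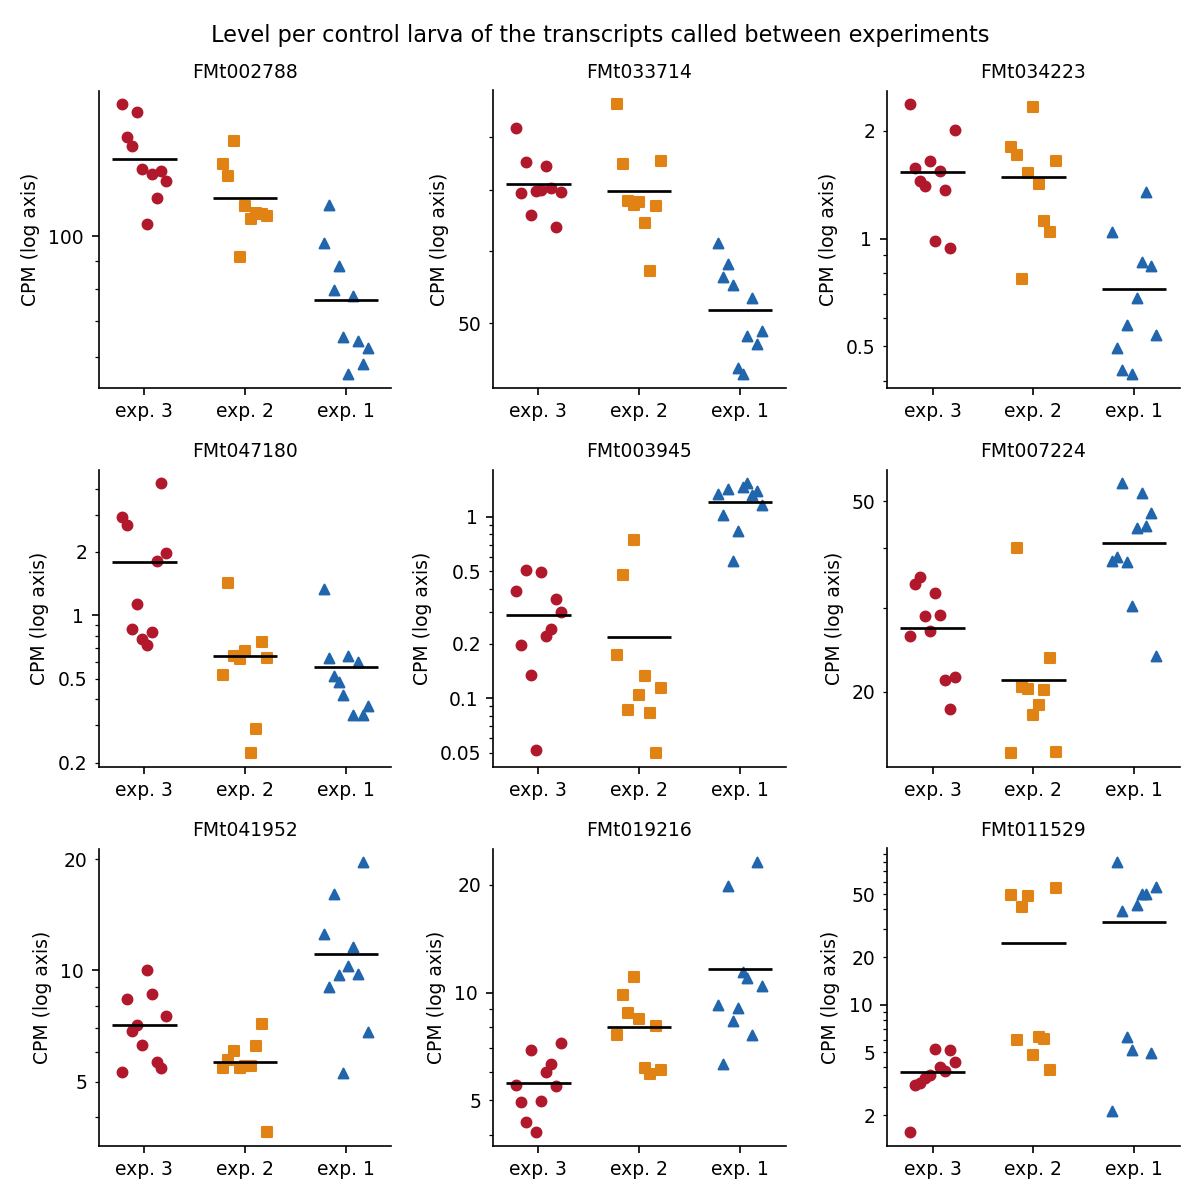
CPM (vertical, log axis) of 9 named transcripts in each control larva, with experiments 3, 2 and 1 from left to right and a line at the mean. The transcripts were chosen by their calls between experiments, which favours separation. FMt033714 and FMt003945 separate experiment 1 from experiments 3 and 2 with little or no overlap. FMt002788 separates experiment 1 from experiment 3 but for 1 larva, and its levels in experiments 2 and 1 overlap. FMt011529 has larvae in a low and a high range in experiments 2 and 1.

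The exposed larvae give the same contrast in libraries that share none with the controls. Their fit, with the concentration as a covariate, called 1574 of 34930 transcripts between experiments 3 and 1 (4.51%), 1290 between experiments 2 and 1 (3.69%) and 507 between experiments 3 and 2 (1.45%). It had 110 libraries against 29 in the fit of controls, and the number of calls depends on the number of libraries. Over all transcripts tested, the median absolute log2 difference was 0.0933, 0.0914 and 0.0866 in exposed larvae for 3 minus 1, 2 minus 1 and 3 minus 2. In control larvae it was 0.128, 0.117 and 0.108. This median also depends on the number of larvae, 9 or 10 per experiment in controls and 36 or 37 in exposed larvae. Sampling error raises it where larvae are fewer, so it does not show that controls differed more between experiments. All 30 transcripts called in controls between experiments 3 and 1 had the same sign in the exposed larvae, and 22 of them were called there. Of the 22, 17 were higher in experiment 3, where 2.39% of all transcripts were called higher, and 5 were lower, where 2.12% were called lower. The median log2 difference of the 23 that were higher in control larvae was 0.56 in control larvae and 0.54 in exposed larvae. For the 7 that were lower it was -1.06 in control larvae and -0.47 in exposed larvae. The choice of these transcripts by their test in control larvae favours larger differences there. All 4 transcripts called in controls between experiments 2 and 1 had the same sign and were called in the exposed larvae. Under 7 other settings for the exposed larvae, among them the same fit at a stricter threshold, 28 to 30 of the 30 had the same sign and 18 to 25 were called.

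Transcripts called in the exposed larvae mostly had the same direction in the controls. Of the 1518 called in exposed larvae between experiments 3 and 1 and tested in both, 1404 (92.5%) had the same sign in control larvae, beside 63.9% of all 33381 transcripts tested in both. For experiments 2 and 1 it was 1109 of 1248 (88.9%), beside 63.2%, and for experiments 3 and 2 it was 371 of 481 (77.1%), beside 57.6%. The differences were smaller in control larvae than in the exposed larvae by which the transcripts were chosen. For experiment 3 minus 1 the median in the direction of the call was 0.23 in control larvae and 0.34 in exposed larvae on the log2 scale. For experiment 3 minus 2 it was 0.20 in control larvae and 0.53 in exposed larvae. Across all transcripts tested in both, Pearson's r of the log2 differences was 0.464 for experiment 3 minus 1, 0.355 for 2 minus 1 and 0.246 for 3 minus 2; transcripts of the same libraries are not independent, and no p is given.

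**Figure D4:**
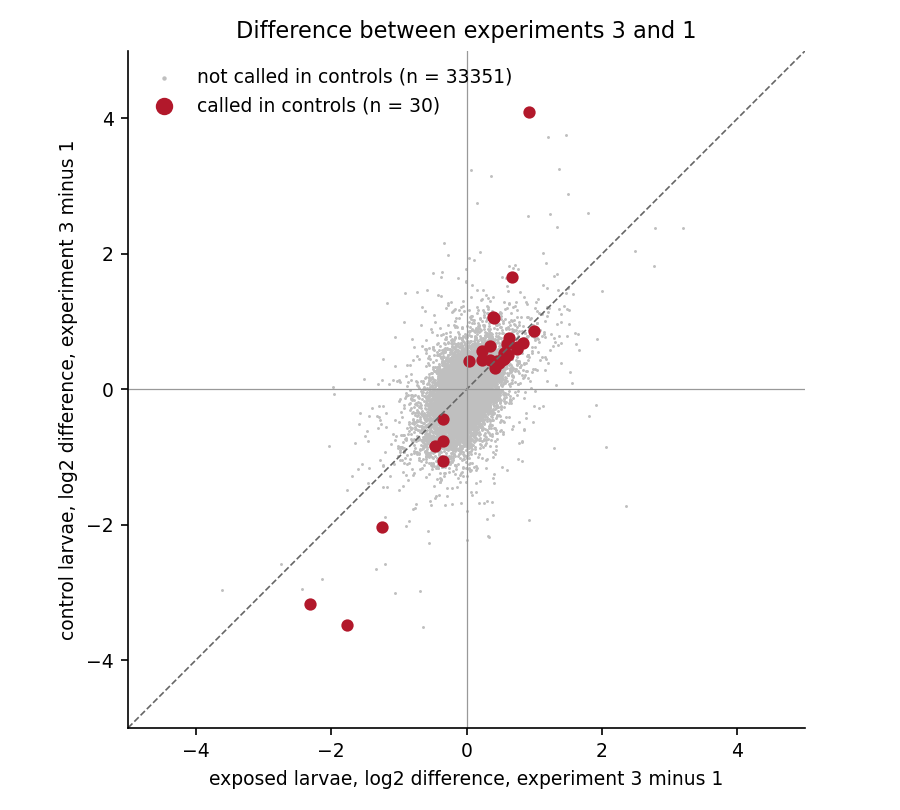
Log2 difference of experiment 3 minus 1 in control larvae (vertical) and exposed larvae (horizontal) for 33381 transcripts, with a dashed line of equality. The 30 transcripts called in controls (large points) all lie in the lower left or upper right quadrant, 23 of them above 0 on both axes.

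The means of FMt002788 kept their order of experiments at every concentration. On the scale common to all libraries the larvae at 0 ng/L averaged 136 ± 21.5 CPM in experiment 3, 115 ± 17.3 CPM in experiment 2 and 74.7 ± 18.4 CPM in experiment 1 (SD, n = 10, 9 and 10). At 10 ng/L they averaged 99.6 ± 11.6 CPM in experiment 3, 92.9 ± 21.3 CPM in experiment 2 and 55.7 ± 7.54 CPM in experiment 1 (SD, n = 9, 9 and 10). In the exposed larvae its log2 difference was 0.99 ± 0.06 (SE; edgeR adjusted p = 4.63e-27) for experiment 3 minus 1 and 0.81 ± 0.06 (edgeR adjusted p = 7.21e-21) for experiment 2 minus 1. FMt033714 was higher by 0.54 ± 0.05 and 0.44 ± 0.05 on the log2 scale in exposed larvae of experiments 3 and 2 than in those of experiment 1, both called. FMt003945 was lower there by log2 differences of -1.24 ± 0.25 and -1.80 ± 0.26, both called. At 0.12 ng/L its median was lowest in experiment 1, at 0.103 CPM beside 0.225 CPM in experiment 3 and 0.357 CPM in experiment 2. The means at that concentration were 0.269, 0.370 and 0.431 CPM in experiments 3, 2 and 1 (n = 6, 6 and 5).

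FMt011529 was also called in exposed larvae, with a log2 difference of -2.31 ± 0.32 (SE; edgeR adjusted p = 8.60e-08) for experiment 3 minus 1. For experiment 2 minus 1, FMt007224 at -0.93 ± 0.11 and FMt041952 at -0.85 ± 0.13 were called there too. Of the named transcripts called in controls for experiment 3 minus 1, FMt019216, FMt047180 and FMt034223 were not called in the exposed larvae. FMt019216 had a log2 difference of -0.35 ± 0.13 (SE; edgeR adjusted p = 0.0981) for experiment 3 minus 1 in exposed larvae. FMt047180 had one of 0.68 ± 0.24 (edgeR adjusted p = 0.0784) and FMt034223 one of 0.40 ± 0.20 (edgeR adjusted p = 0.285). Whether any of them differed between control and exposed larvae was not tested.

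**Figure D5:**
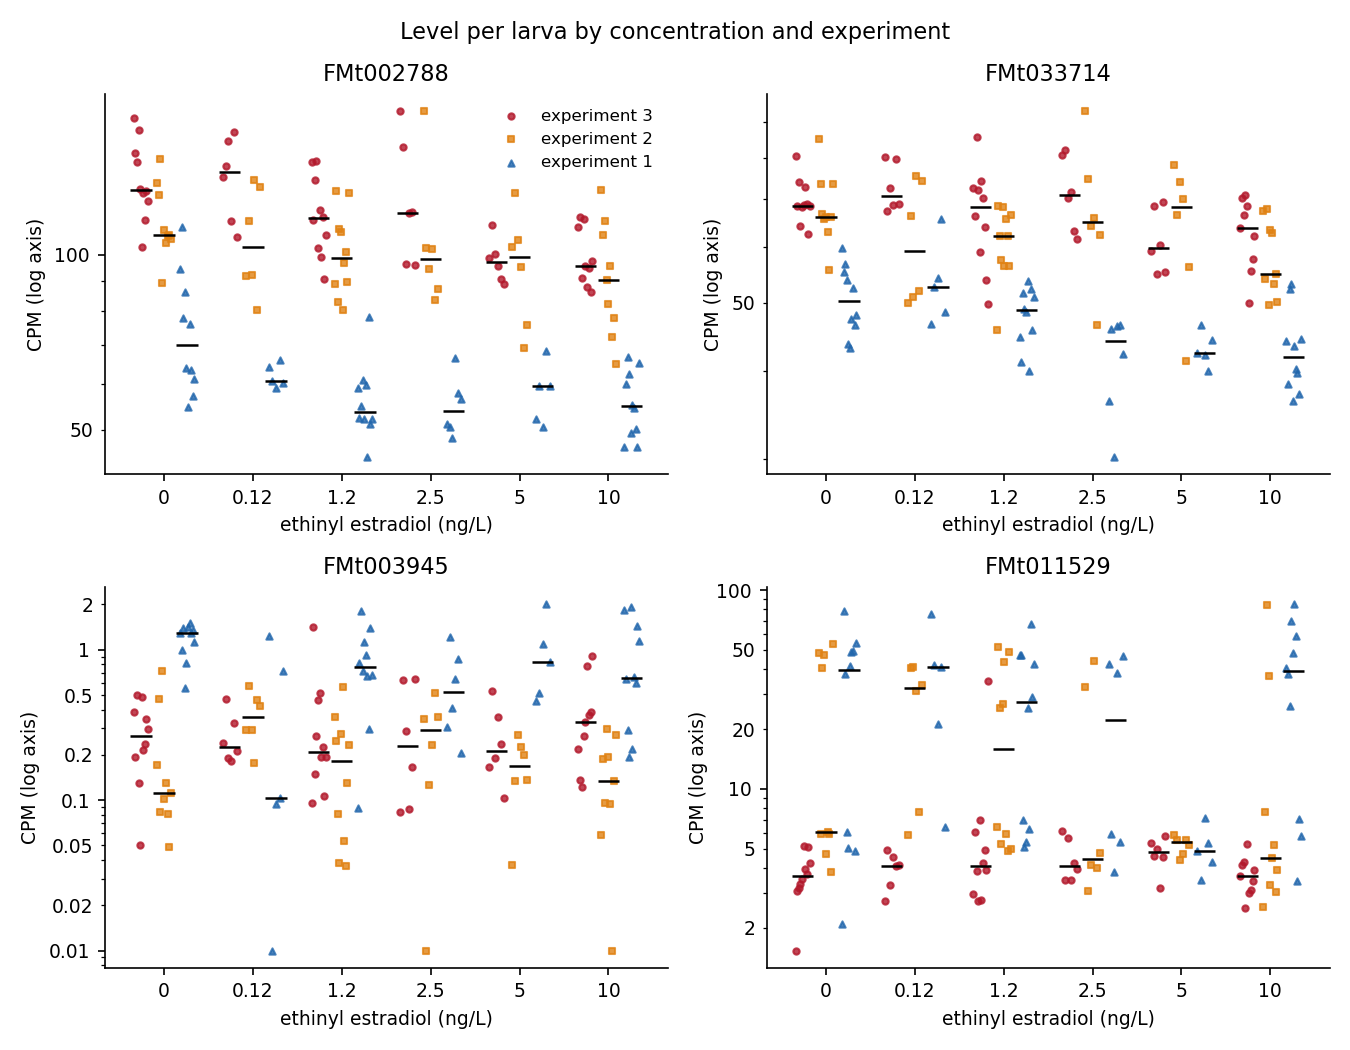
CPM (vertical, log axis) of 4 transcripts in each control and exposed larva by concentration of ethinyl estradiol (horizontal, ng/L), with experiments 3, 2 and 1 from left to right at each concentration and a line at the median. Larvae with no read are drawn at 0.01 CPM. FMt002788 is lowest in experiment 1 at every concentration, and FMt011529 has a low and a high range of larvae at most concentrations.

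Estrogens such as ethinyl estradiol act through nuclear receptors that raise transcription of their target genes, and a low level in unexposed animals is what makes such targets useful as markers. Earlier results of these data name 4 transcripts that rise with ethinyl estradiol (FMt030408, FMt030407, FMt030406 and FMt019919), and their mean levels in control larvae were under 1 CPM in every experiment. FMt030408 had a lowest, median and highest larva of 0.236, 0.546 and 1.02 CPM in experiment 3, 0.171, 0.299 and 0.6003 CPM in experiment 2, and 0.265, 0.594 and 0.765 CPM in experiment 1, which is 3 to 27 reads per larva. The experiments overlapped, and the widest difference, 0.70 ± 0.30 (SE, log2) for experiment 3 minus 2, had an adjusted p of 1.00 by edgeR. FMt019919 averaged 0.443 ± 0.240 CPM in experiment 3, 0.401 ± 0.153 CPM in experiment 2 and 0.260 ± 0.140 CPM in experiment 1. Its log2 difference for experiment 3 minus 1 was 0.76 ± 0.33 (SE; edgeR adjusted p = 0.508).

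FMt030407 and FMt030406 had too few reads in control larvae to be tested between experiments. FMt030407 averaged 0.0811 ± 0.119 CPM in experiment 3, 0.112 ± 0.0537 CPM in experiment 2 and 0.128 ± 0.103 CPM in experiment 1, with 5 larvae of experiment 3, 0 of experiment 2 and 2 of experiment 1 at no read. FMt030406 averaged 0.0767 ± 0.0646, 0.0694 ± 0.107 and 0.120 ± 0.116 CPM in experiments 3, 2 and 1, with 3, 4 and 2 larvae at no read. The filter on counts left both out of the fit of controls, so these levels are given without a test. FMt036339, like FMt002788 above, was also taken from earlier results. It averaged 1.77 ± 0.529 CPM in experiment 3, 2.00 ± 0.467 CPM in experiment 2 and 2.24 ± 0.425 CPM in experiment 1, and its log2 difference for experiment 3 minus 1 was -0.34 ± 0.17 (SE; edgeR adjusted p = 0.576).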

How the data were processed

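The deposited values are raw counts of reads for each transcript in each library. The submitters' processing notes name edgeR 3.26.8, limma 3.40.6 and bcl2fastq 2.19.1. The aligner, the strand setting and the treatment of reads that fit several transcripts are not given in the sources used. Libraries were made with the SENSE mRNA-Seq V2 kit, per the labels' protocols. The table had 37085 identifiers, 0 of which matched 64593 RefSeq genes, so lists of tissue markers were not tested. A row without identifier (0 to 10 reads per control library, 1.52e-05%) was left out, and 0 columns were unmapped. In the 126 pairs of control libraries from the same experiment, neither library was a copy of the other (chi-square 11.6 to 94.8 times its degrees of freedom). Other pairs were not checked.

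Counts were fitted in R 4.3.3 with edgeR 4.0.16 (TMM, filterByExpr with minimum count 10 and minimum total 15, robust quasi-likelihood, Benjamini-Hochberg). One fit of the 29 controls had the experiment as its only term and 33388 transcripts, at a median count of 118 and a biological coefficient of variation of 30.3%. A fit of the 110 exposed larvae added the concentration and had 34930 transcripts. SE is the log2 difference divided by the square root of F. CPM use TMM-adjusted totals, and log2 CPM a prior count of 2. Library measures were compared by exact permutation. Alternatives were RLE scaling, other filters, DESeq2 1.42.0, limma-voom 3.58.1, other thresholds and omitted larvae.

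The larvae, transcripts and tests were chosen with earlier results of these data known. Named are, per pair of experiments, 2 called transcripts in each direction with the largest differences at 1 CPM or more, all where 5 or fewer were called in a direction, the 2 with the smallest joint p, the 3 most abundant, and 6 from earlier results.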

Additional observations from a re-analysis of the deposited data

Results flagged for a closer look

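Each of 7 library measures and 17 named transcripts was checked within each experiment for a larva far from the others, 72 groups in all. A larva was listed where its gap to the nearest other larva, divided by the group's range, exceeded Dixon's 95% critical value for its number of larvae. For normally distributed values chance flags about 1 in 20 groups, and 11 of the 72 were flagged. The CPM were not transformed, some rest on few reads, and the groups share larvae, so that rate is only a rough guide here.

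Larva A12 of experiment 1 had the lowest total, 11.7 M counts, with the next at 21.7 M. Larva A28 of experiment 2 had a TMM factor of 0.896, with the next at 0.972, and 28.7% of its reads in its 100 most abundant transcripts, with the next at 26.2%. The same larva had 39.9 CPM of FMt007224, with the next larva of experiment 2 at 23.5 CPM, and 1.43 CPM of FMt047180, with the next at 0.747 CPM. Larva A57 of experiment 3 scored -80.8 on the first principal component, with the next at -16.9. Larva A48 of experiment 2 had 3.65 CPM of FMt041952, with the next at 5.44 CPM. Larva A02 of experiment 1 had 1.33 CPM of FMt047180, with the next at 0.644 CPM. FMt030406 reached 0.331 CPM in larva A42 of experiment 2 and 0.397 CPM in larva A08 of experiment 1, with the next larvae at 0.114 and 0.201 CPM. Larva A53 of experiment 3 had 2.91 CPM of FMt036339, with the next at 2.01 CPM.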

How the results depend on the processing

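No paired analysis was possible because the experiments share no title numbers. Calls in controls, given in the order experiment 3 minus 1, 2 minus 1, 3 minus 2 and joint test (30, 4, 0 and 21), were 113, 64, 5 and 136 by DESeq2. Limma-voom with quality weights gave 55 for 3 minus 1, 22 for 2 minus 1 and 38 jointly. An adjusted p under 0.01 left 6, 0 and 4, and a fold of at least 2 left 8, 1 and 4, in that order. With only the experiments compared, 14 remained for 3 minus 1, 13 of them the same transcripts, and 0 for 2 minus 1. A minimum of 1 CPM in 9 larvae left 2 for 2 minus 1, and omitting the shallow library A12 left 10 jointly. Leaving out the 6 larvae that deviated most, chosen after the data were seen, gave 7 for 2 minus 1. Control and exposed larvae in 1 fit with a term for concentration gave 2599, 1970, 692 and 3514.

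Without each larva in turn the counts ran from 17 to 42 for 3 minus 1, from 0 to 14 for 2 minus 1, stayed at 0 for 3 minus 2, and ran from 6 to 26 jointly. For 2 minus 1 they moved by over 1.5 times without A03 (8), A07 (2), A13 (7), A17 (1), A18 (1), A22 (1), A27 (0), A28 (9), A32 (0), A33 (14), A38 (2), A42 (2) and A48 (0). Jointly they did without A03, A42 and A53 (13 each), A12 and A13 (10), A07, A18, A22, A23 and A27 (8), A52 and A72 (7) and A17 (6). The cause was not tested.

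In exposed larvae, only 1.2 and 10 ng/L larvae gave 201 calls for 3 minus 1, 270 for 2 minus 1 and 5 for 3 minus 2, against 1574, 1290 and 507. An adjusted p under 0.01 gave 698, 603 and 105. For 3 minus 2, limma-voom gave 289 and DESeq2 774.

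Measures that changed sign were all short of the threshold. Thinned to the lowest total, the difference in transcripts detected was 34.3 for 2 minus 1 and -14.4 for 3 minus 2. With the 500 most variable transcripts the first component score differed by -0.268 for 2 minus 1 and -5.19 for 3 minus 1, and with 5000 by -0.209 for 3 minus 1. The share of the 10 most abundant transcripts differed by 0.148 percentage points for 2 minus 1. FMt036339 had a log2 difference of 0.17 for 3 minus 1 with all larvae. Depth limits transcripts under 1 CPM, which rest on few reads per larva.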
